A study of Mus musculus with 20 samples.

Results

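The genes described here take up fatty acids into heart cells, carry them into mitochondria and oxidise them, or control that pathway. Members were chosen by gene symbol from a list of 34 genes, drawn up with earlier results of these data known. All 34 were found, of 17243 genes listed at both ages. Their messenger RNA was measured by stranded poly(A) sequencing of 20 mouse hearts, from animals whose Sorbs2 gene was knocked out (KO) or normal (WT). The Sorbs2 protein is a scaffold at the Z-disc and on actin filaments, and the series is concerned with diastolic dysfunction, the cytoskeleton and calcium handling after its loss. At 6 months there were 4 KO hearts treated with a vector (KO+AAV), 5 untreated KO hearts and 5 untreated WT hearts, and at 6 weeks 3 untreated KO and 3 untreated WT hearts. The vector, AAV9-Tnnt2-Sorbs2, was given on postnatal day 2 and drives Sorbs2 from the promoter of Tnnt2, a cardiomyocyte gene. Per the labels the other groups were untreated and none received an empty vector, so giving a virus and giving back Sorbs2 cannot be told apart. The labels give no sex. At 6 months, Y-linked transcripts exceeded Xist in 2 of 4 KO+AAV, 5 of 5 KO and 3 of 5 WT libraries, so the groups were not balanced in this. The part of this imbalance was not tested, beyond counts in the Y-linked libraries alone. The labels name the tissue as left ventricle and the protocol as ventricular myocardium. Against that label, the atrial genes Myl7 and Sln stood at 20062 to 35244 and 4605 to 8222 in KO and at 22450.1 to 32889 and 3628 to 5632 in WT hearts at 6 weeks, and at most at 459 and 89.9 in any library at 6 months.

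Long-chain fatty acids are the main fuel of the adult heart. They are released from lipoproteins at the vessel wall, bound and activated to acyl-CoA inside the cell, and moved into the mitochondrion by the carnitine shuttle. There they are shortened in repeated rounds of dehydrogenation, hydration, renewed dehydrogenation and thiolysis. The nuclear receptor PPAR-alpha (Ppara), the estrogen-related receptor ERR-alpha (Esrra) and their PGC-1 coactivators drive transcription of these genes, whose use rises after birth as the heart turns from glucose and lactate to fat.

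Sorbs2 itself stood at 276 to 365 normalised counts in KO and 1409 to 1990 in WT hearts at 6 weeks, and at 4696 to 17923 in KO+AAV, 494 to 1755 in KO and 4562 to 5398 in WT hearts at 6 months. The reads behind these values are unknown, and the normalised counts of a library summed to 6705130 to 8240290 at 6 weeks and 11359100 to 13670300 at 6 months. The 2 ages were normalised separately, so levels are compared only within an age. Cardiomyocyte marker genes summed to 1478490 to 2151320 in KO+AAV, 1095330 to 1385140 in KO and 1612770 to 1959510 in WT hearts at 6 months, so the marker sum was lower in every KO library than in every library of the other groups. At 6 weeks it was 471922 to 567830 in KO and 538969 to 802894 in WT hearts. Of 14 such markers, 3 fell in KO hearts at 6 months (Myh6, Tnni3 and Myl3). Myh6 stood at 174544 to 406774 in KO and 517771 to 676055 in WT hearts. The markers did not move alike: Ttn stood at 82293 to 116254 in KO and 50635 to 85764 in WT hearts and Myom1 at 25467 to 41253 in KO and 16089.5 to 30269 in WT hearts, both with estimates above 0 that did not pass the test. Of 10 fibroblast markers, 6 rose there, led by the collagen genes Col1a1 and Col1a2, at a sum of 42930 to 59357 in KO and 30599 to 45640 in WT hearts. The other 4 did not pass the test, and these markers did not move alike either. Tcf21 stood at 73.0 to 109 in KO and 83.6 to 155 in WT hearts, and Gsn at 14785 to 23868 in KO and 16609 to 26385 in WT hearts. In such bulk samples, fewer cells of a type and less RNA per cell cannot be told apart, and the part of these markers in the results was not tested except where a value scaled to them is given.

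**Figure D1:**
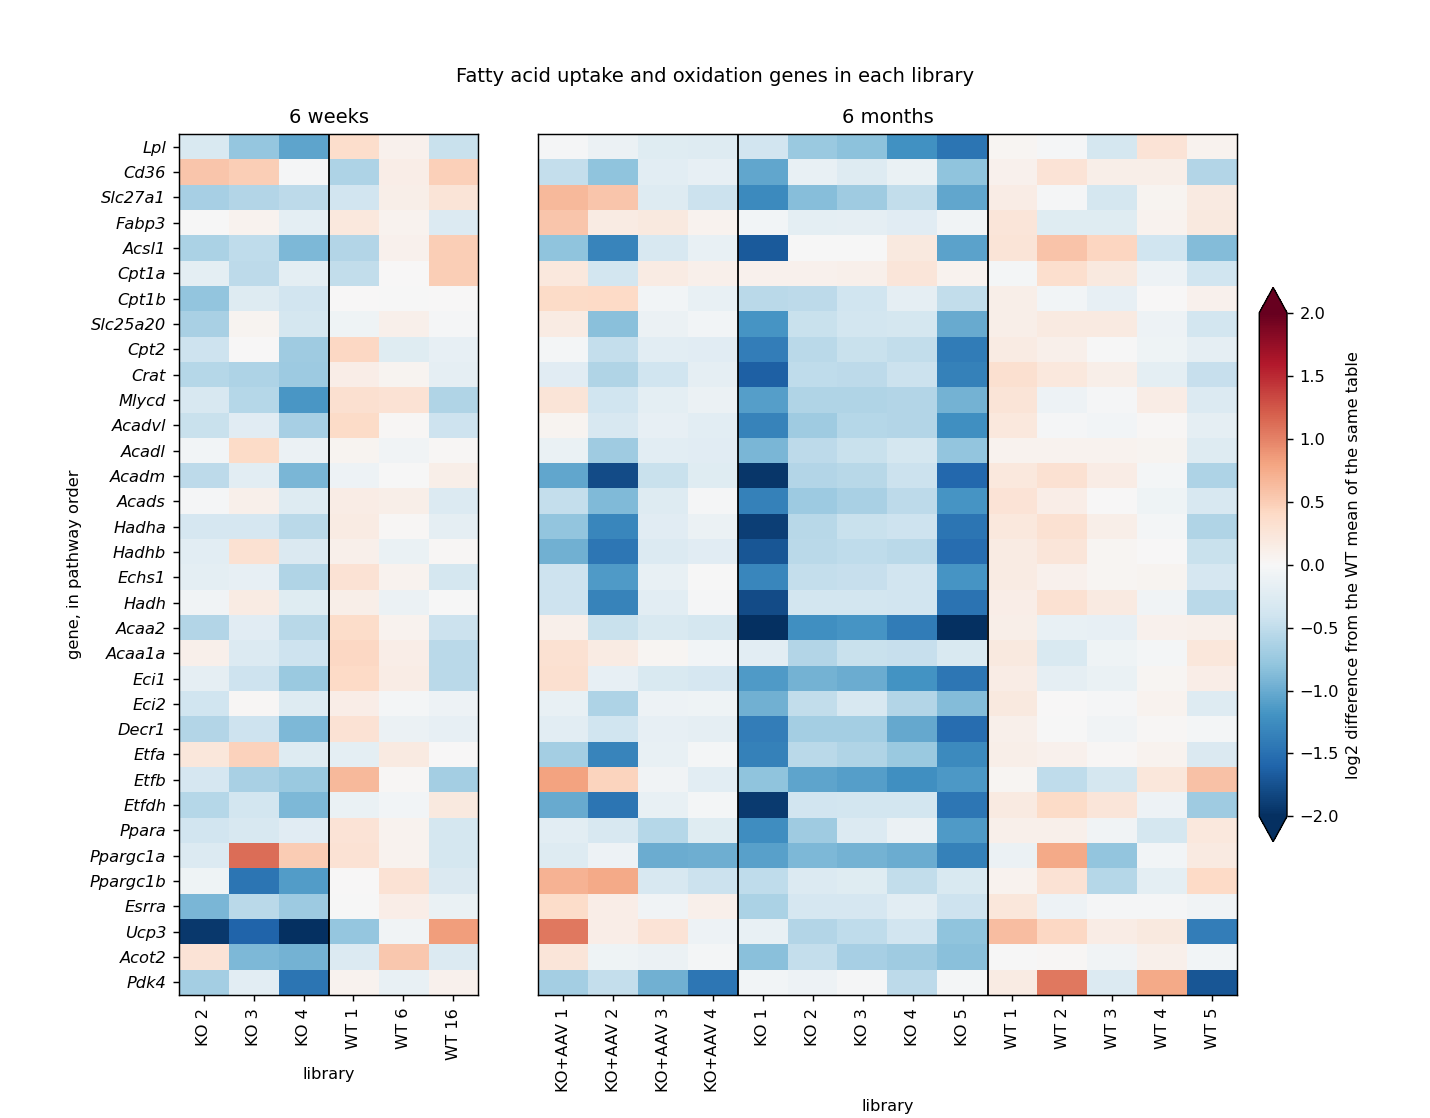
Log2 values of the 34 genes in each library (columns), as the difference from the WT mean of the same age; blue is lower and red higher, and the scale ends at a difference of 2 on the log2 scale. At 6 months the KO columns are mostly blue, most deeply for Acaa2 in KO 1 and KO 5. The KO+AAV columns mix blue, white and pale red, with KO+AAV 2 deep blue for Acadm and Etfdh.

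The genes differed widely in level. Per kilobase of exon sequence, Fabp3 stood first of the 34 genes in WT hearts at 6 months, at 55910.4 ± 8901 (SD, n = 5), and Cpt1a last, at 79.0 ± 15.2. Etfb, at 12471 ± 3828 per kilobase, and Acaa2, at 10723 ± 1010 per kilobase, followed Fabp3 in WT hearts and did not differ beyond their spread. Acaa2 was at rank 3 per kilobase in KO+AAV hearts, at 9090.1 ± 1611, and at rank 7 in KO hearts, at 3714 ± 1046. In WT hearts at 6 weeks, Lpl was first per kilobase, at 10214 ± 2741, and Fabp3 next to it, at 8399.5 ± 1402.

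Promoter windows from RefSeq were at hand for 28 of the 34 genes, and the upstream part of 4 is printed here, in GRCm38.p6 (mm10), for the genes to which later results return. Ucp3 was the gene that passed the test at 6 weeks. Ppara encodes the receptor that controls the pathway, and Acadm and Etfdh were among the genes that varied most between libraries of a group. Each stretch holds the 250 bases before the RefSeq start, in the direction of transcription.
Ucp3, chr7:100472741-100472990, plus strand: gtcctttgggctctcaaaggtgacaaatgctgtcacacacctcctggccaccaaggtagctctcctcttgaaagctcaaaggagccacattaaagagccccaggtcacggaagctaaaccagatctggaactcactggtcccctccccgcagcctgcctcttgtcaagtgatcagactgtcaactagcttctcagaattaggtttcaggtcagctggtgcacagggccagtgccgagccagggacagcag
Ppara, chr15:85735526-85735775, plus strand: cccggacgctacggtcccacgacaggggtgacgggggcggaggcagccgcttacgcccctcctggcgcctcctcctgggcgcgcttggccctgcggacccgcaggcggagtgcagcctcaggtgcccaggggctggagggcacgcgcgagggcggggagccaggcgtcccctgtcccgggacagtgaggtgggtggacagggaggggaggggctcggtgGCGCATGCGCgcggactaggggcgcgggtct
Acadm, chr3:153944644-153944893, minus strand: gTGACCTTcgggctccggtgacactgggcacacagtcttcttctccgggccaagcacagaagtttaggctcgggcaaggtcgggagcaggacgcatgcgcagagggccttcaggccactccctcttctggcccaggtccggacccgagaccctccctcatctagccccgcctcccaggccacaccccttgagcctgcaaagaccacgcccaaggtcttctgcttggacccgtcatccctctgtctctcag
Etfdh, chr3:79628768-79629017, minus strand: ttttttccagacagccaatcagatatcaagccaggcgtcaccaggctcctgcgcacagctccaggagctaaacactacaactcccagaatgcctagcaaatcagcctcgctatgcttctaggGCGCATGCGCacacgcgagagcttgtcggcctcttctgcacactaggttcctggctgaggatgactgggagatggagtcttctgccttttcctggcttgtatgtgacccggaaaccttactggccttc
Capitals mark matches to a searched motif on either strand. The palindrome in capitals in Ppara and Etfdh is the element of nuclear respiratory factor NRF1. It lay 31 to 22 bases before the start of Ppara and 128 to 119 before that of Etfdh. The NRF1 element was present in 2 of 28 genes with a window, against 0.782% of all 32851 windows of that length. AAGGTCA, an extended nuclear receptor half-site contained in the ERR element, which the list of motifs gained after the values had been seen, lay at the far end of the Acadm window, on the opposite strand. It was in 1 of the 28 genes and in 4.08% of all windows. The ERR element TCAAGGTCA and the direct repeat 1 that PPAR-alpha binds with retinoid X receptors were in none of the 31 windows of these genes, and in 0.387% and 0.0335% of all windows. No match says only that these letters are not in these windows.

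At 6 weeks, Ucp3 was the single member that differed between KO and WT hearts. Ucp3, a mitochondrial carrier whose transcript follows fatty acid supply, stood at 198, 249.7 and 165 in KO hearts and 444, 721 and 1355 in WT hearts. Every KO value lay below every WT value, and the WT values were spread widely. The KO mean was 24.3% of the WT mean, and the change was -1.91 on the log2 scale (SE 0.34, adjusted p = 0.0318) (limma, Benjamini-Hochberg over 13242 genes), on the scale of log2(value + 1) used throughout. The count was 1 lower and 0 higher of 34, against 0.211% of all genes tested lower and 0.378% higher. The call was lost, with adjusted p up to 0.162, when library WT6, KO3 or KO4 was left out, and under 3 of the other settings. Ucp1, a defining gene of brown fat, stood at 83.7 to 385 in KO and at most 94.7 in WT hearts at this age; its part in the result was not tested.

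Of the 34 genes, 30 had a KO mean below the WT mean at 6 weeks, and the median log2 change of the 34 was -0.45, against 0.01 over all genes. In 10 genes every KO value lay below every WT value, against 10.3% of all genes in that direction. These were Slc27a1, Cpt1b, Crat, Acadm, Hadha, Decr1, Etfdh, Esrra, Ucp3 and Pdk4. No gene but Ucp3 passed the test, and 12 had an unadjusted p under 0.05. With both sets scaled to the cardiomyocyte markers, the median of the 34 was -0.14 at 6 weeks and that of all genes 0.31. Fibroblast markers summed to 41389 to 47585 in KO and 31774 to 38461 in WT hearts at this age, and endothelial markers to 14907.5 to 15379.7 in KO and 11147 to 12056 in WT hearts. Neither sum overlapped between the groups, yet of 10 fibroblast and 10 endothelial markers 0 passed the test at 6 weeks. Single endothelial markers differed: Pecam1, at 1966 to 2096 in KO and 660 to 1274 in WT hearts, did not overlap. Kdr, at 589 to 760 in KO and 479 to 953 in WT hearts, and Egfl7, at 1384 to 1809 in KO and 1398 to 2474 in WT hearts, did. The part of these markers in the 6-week values was not tested.

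The entry genes gave these 6-week values. Lpl, the lipase that frees fatty acids from lipoproteins, stood at 84807, 60681 and 50274 in KO and 133616, 110885 and 76560.3 in WT hearts. The groups overlapped (log2 change -0.71, SE 0.40, adjusted p = 0.427). Adipocytes also express Lpl, and their markers summed to 561 to 2144 in KO and 302 to 700.0 in WT hearts at this age. Cd36, the fatty acid translocase of the plasma membrane, stood at 4099, 3918 and 2743 in KO and 1817, 3055 and 3865 in WT hearts (log2 change 0.35, SE 0.28, adjusted p = 0.584). It was one of 4 genes with a KO mean above the WT mean, its groups overlapped, and endothelial cells, whose marker sum was higher in every KO library, also carry it. Fabp3, the heart fatty acid binding protein, stood at 6810.2, 7175 and 5969 in KO and 7921, 7163 and 5655 in WT hearts, with groups that overlapped and a difference inside their spread (log2 change -0.05, SE 0.22, adjusted p = 0.943). Acsl1, which activates long-chain fatty acids with coenzyme A, stood at 1143, 1244 and 948 in KO and 1183, 1894 and 2502 in WT hearts (log2 change -0.68, SE 0.26, adjusted p = 0.243). Its lowest WT value lay within the KO range.

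Cpt1b, the muscle form of the outer-membrane carnitine palmitoyltransferase, stood at 3115, 4498 and 4136 in KO and 5442, 5345 and 5399 in WT hearts at 6 weeks. The WT values were close together and all KO values were lower, yet the change missed the threshold (log2 change -0.48, SE 0.21, adjusted p = 0.309). Cpt1a, the liver form, stood at 426, 341 and 426 in KO and 349, 491 and 686 in WT hearts, which overlapped (log2 change -0.31, SE 0.25, adjusted p = 0.571). Acaa2, the mitochondrial thiolase, stood at 2573, 3304 and 2607 in KO and 4952, 4019.7 and 2859.9 in WT hearts. The groups overlapped through the lowest WT library (log2 change -0.45, SE 0.24, adjusted p = 0.39). Pdk4, which inhibits pyruvate dehydrogenase and so spares glucose, stood at 826, 1135 and 477 in KO and 1379, 1184 and 1404 in WT hearts. All KO values were lower, without passing the test (log2 change -0.78, SE 0.28, adjusted p = 0.218).

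Among the regulators at 6 weeks, Esrra stood at 1019, 1318 and 1157 in KO and 1912, 2107 and 1735 in WT hearts, with no overlap (log2 change -0.72, SE 0.19, adjusted p = 0.108). Ppara stood at 316, 329 and 353 in KO and 497, 435 and 324 in WT hearts, with overlap (log2 change -0.31, SE 0.20, adjusted p = 0.499). Neither passed the test. Ppargc1a, which encodes PGC-1alpha, stood at 665, 1738 and 1135 in KO and 977, 839.5 and 625 in WT hearts. The groups overlapped, and the estimate was above 0 (log2 change 0.45, SE 0.31, adjusted p = 0.517). Ppargc1b, its relative PGC-1beta, stood at 1196, 463 and 586 in KO and 1274, 1548 and 1039 in WT hearts (log2 change -0.89, SE 0.31, adjusted p = 0.216). One KO library lay within the WT range and the others far below it.

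At 6 months, transcripts of most fatty acid oxidation genes were lower in KO than in WT hearts. All 4 acyl-CoA dehydrogenases and all 3 auxiliary enzymes fell. Of 6 genes of the carnitine shuttle and malonyl-CoA removal 5 fell, Mlycd among them. So did 5 of 6 genes of hydration, second dehydrogenation and thiolysis, among them the peroxisomal thiolase Acaa1a. Neither of the 2 genes of intracellular binding and activation passed the test. Of the 34 genes, 25 fell and 0 rose, against 8.18% of all 13419 genes tested that fell and 8.13% that rose. Because the list was chosen with earlier results of these data known, such shares are given as description. The KO mean was below the WT mean for 33 genes, the median log2 change was -0.81, against 0.00 over all genes, and the range was -1.57 to 0.11. In 19 genes every KO value lay below every WT value, against 7.29% of all genes in that direction. The 9 genes that did not pass were Cd36, Fabp3, Acsl1, Cpt1a, Hadh, Etfdh, Ppargc1b, Ucp3 and Pdk4. Of the 25, 9 genes passed the test in all 29 alternative analyses (Acaa2, Eci1, Decr1, Acot2, Acadvl, Mlycd, Etfb, Acads and Cpt2), and 16 missed it in at least 1. Of these alternatives, 3 used the sides of a within-group component described below and were added after the data were seen. A call kept in those 3 is no further support. Those lost most often, in 10 to 19 alternatives each, were Cpt1b, Acadm, Hadha, Esrra, Acaa1a, Hadhb, Slc25a20, Echs1 and Ppara. Relative to the cardiomyocyte markers, which shifts the median of all genes by 0.39, 11 genes were lower in KO than in WT hearts and Cpt1a was higher (log2 change 0.50, adjusted p = 0.0218). Of all genes, 4840 were called under that scaling, 92.4% of them higher, against 2189 as deposited, 49.8% of them higher. The count of members was also lower without KO replicate 5 (15, with 1520 of all genes called), without WT replicate 1 (16, with 1604) and without KO replicates 1 and 5 (11, with 1402). It was 15 in the libraries whose Y-linked transcripts exceed Xist (1534 of all genes called). It was 15 after rescaling to equal totals (2428, 73.1% of them higher) and 14 after quantile normalization (2043).

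**Figure D2:**
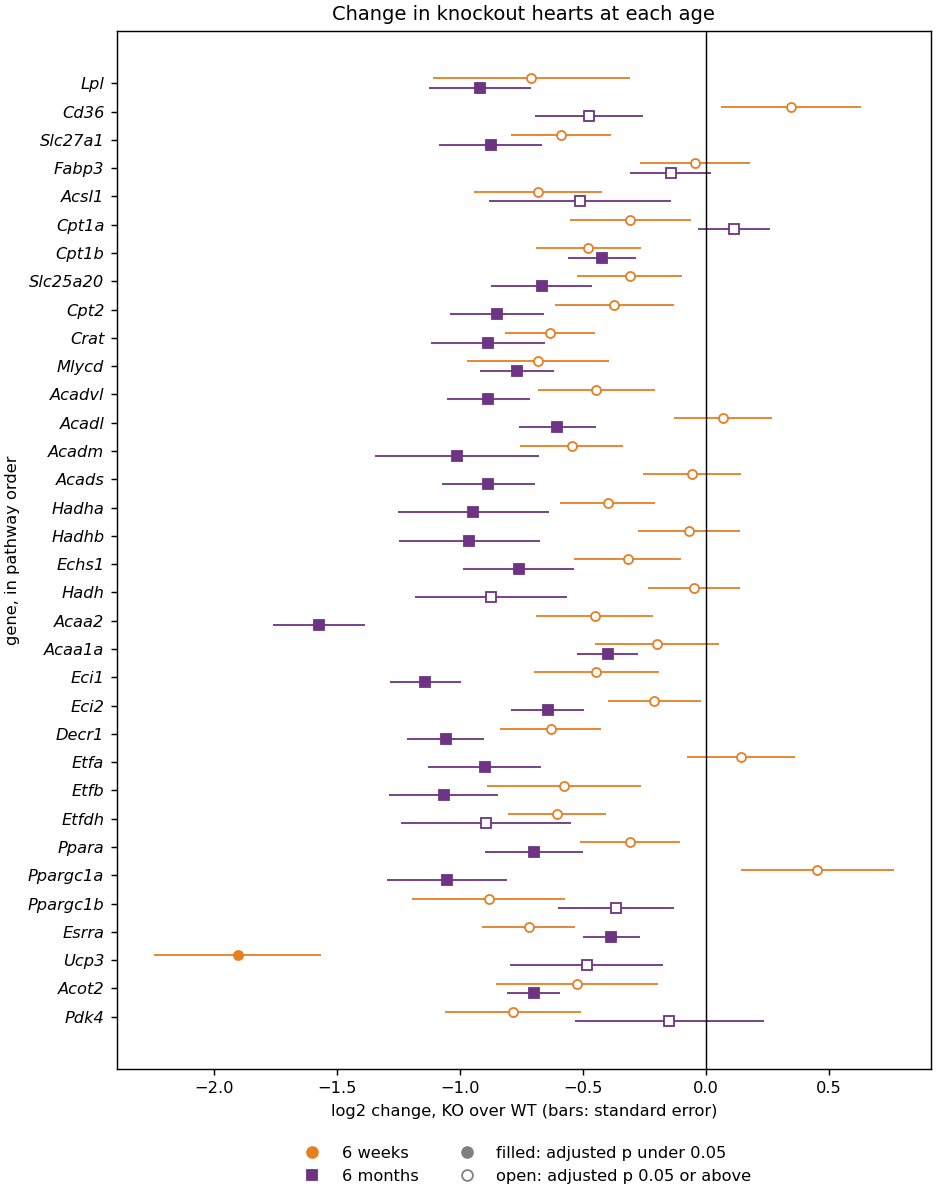
Log2 change of each gene in KO over WT hearts at 6 weeks (circles) and 6 months (squares), with standard errors; filled symbols passed the limma test at an adjusted p of 0.05. At 6 months all genes but Cpt1a lie left of 0 and 25 are filled, while at 6 weeks only Ucp3 is filled.

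The same genes were measured in KO hearts given back Sorbs2, and the 3 groups are set side by side in what follows. KO+AAV and WT hearts are both compared with the same 5 KO libraries. Against KO hearts, 12 genes rose in KO+AAV hearts and 0 fell, against 5.55% of all genes tested that rose and 5.69% that fell. The KO+AAV mean was above the KO mean for 31 genes, and the median log2 change was 0.48, against 0.00 over all genes. In 14 genes every KO+AAV value lay above every KO value, against 6.68% of all genes in that direction. Acaa2, Eci1, Etfb and Acot2 kept the rise in all 28 alternatives. Decr1 lost it in 1, Slc27a1 in 3, Mlycd and Esrra in 4 each, Acadvl in 5, Acaa1a in 6, Cpt1b in 9 and Lpl in 14. As above, a call kept in the alternatives that used the sides is no further support. Relative to the cardiomyocyte markers, a scaling that moved the median of all genes by -0.31, 6 genes rose (Slc27a1, Acaa2, Eci1, Decr1, Etfb and Acot2). Of all genes, 3682 were then called, 6.76% of them higher, against 1509 as deposited, 49.4% of them higher. Without KO+AAV replicate 1, 5 members rose, where 568 of all genes were called, 41.7% of them higher. In the libraries whose Y-linked transcripts exceed Xist, 4 members rose, where 335 of all genes were called, 24.5% of them higher. That subset held 2 KO+AAV and 5 KO libraries.

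**Figure D3:**
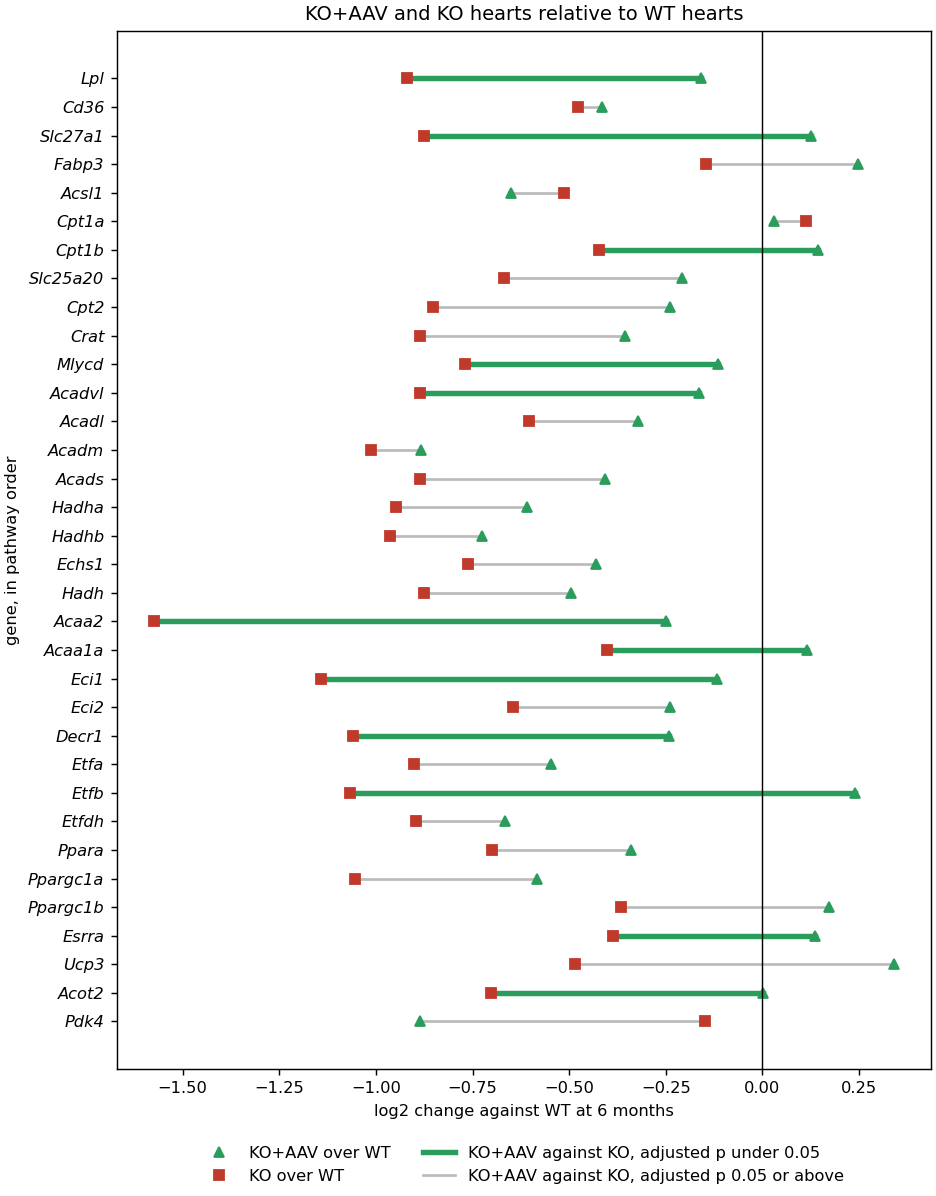
Log2 change against WT hearts at 6 months in KO+AAV hearts (triangles) and KO hearts (squares), joined by a line for each gene; the line is thick and green where KO+AAV differed from KO hearts. The squares lie left of 0 for 33 genes, with Acaa2 farthest left at -1.57, and thick green lines join the symbols of 12 genes.

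Uptake at the membrane differed by gene. Lpl stood at 73429, 69035, 63583 and 62439.9 in KO+AAV, 57568, 44923, 42392, 32485 and 27162 in KO and 77091, 73648, 58559, 90166 and 78173 in WT hearts. Every KO value lay below all others, and summed adipocyte markers were at most 94.6 in any 6-month library. Lpl fell in KO against WT hearts (log2 change -0.92, SE 0.21, adjusted p = 0.00653) and rose in KO+AAV against KO hearts (log2 change 0.76, SE 0.22, adjusted p = 0.0377); the rise was lost in 14 of 28 alternatives. Slc27a1, the fatty acid transport protein FATP1, stood at 2936, 2750.2, 1571 and 1385 in KO+AAV, 774, 1040.5, 1142, 1333 and 908 in KO and 2078, 1843, 1469, 1939.5 and 2127 in WT hearts, again with all KO values lowest. Its change in KO hearts was -0.88 on the log2 scale (SE 0.21, adjusted p = 0.00937), and its change in KO+AAV hearts 1.00 on the log2 scale (SE 0.22, adjusted p = 0.0105). Cd36 stood at 16892, 13473, 20338 and 21017 in KO+AAV, 11473, 21266, 19589, 21511 and 13439 in KO and 24944, 28312, 25475, 25575 and 15671 in WT hearts. Endothelial markers, whose cells also carry Cd36, summed to 17656 to 22159 in KO+AAV, 15042 to 18943 in KO and 17559 to 21952 in WT hearts. One WT library of Cd36 lay inside the KO range, and neither contrast passed the test (log2 change -0.48, SE 0.22, adjusted p = 0.163 for KO against WT, and log2 change 0.06, SE 0.23, adjusted p = 0.878 for KO+AAV against KO).

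Neither gene of intracellular binding and activation passed the test at 6 months. Fabp3 stood at 67213, 51047, 52193 and 47616 in KO+AAV, 43866, 39741, 40155, 38934 and 43409 in KO and 53600.3, 38332, 38331, 47809 and 51999 in WT hearts. KO values lay within the WT range and below all KO+AAV values, and the changes were -0.15 on the log2 scale (SE 0.16, adjusted p = 0.635) for KO against WT, and 0.39 on the log2 scale (SE 0.17, adjusted p = 0.149) for KO+AAV against KO. Of the exon sequence of Fabp3, 29.2% is shared with the pseudogene Fabp3-ps1, so some reads may be divided between them. Acsl1 stood at 5527, 3861, 7742 and 8667 in KO+AAV, 3017, 9657, 9554, 11115 and 4579 in KO and 11609, 14402, 12958, 7316 and 5299 in WT hearts. All groups overlapped widely (log2 change -0.51, SE 0.37, adjusted p = 0.408 for KO against WT, and log2 change -0.14, SE 0.39, adjusted p = 0.838 for KO+AAV against KO).

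Of 6 genes of the carnitine shuttle and malonyl-CoA removal, 5 fell in KO hearts. Cpt1b stood at 14161, 14239, 10499 and 9774 in KO+AAV, 7480.1, 7588, 8266, 9570.3 and 7739 in KO and 11790.1, 10478, 9714, 10893 and 11553 in WT hearts. KO values were below all others, with a small fall near the threshold (log2 change -0.42, SE 0.14, adjusted p = 0.048), lost in 19 of 29 alternatives, and a rise in KO+AAV hearts (log2 change 0.57, SE 0.15, adjusted p = 0.0225). Of its exon sequence, 78.6% is shared with the readthrough transcript Gm44502, and the files list a separate readthrough gene, ChkbCpt1b, so the division of reads is uncertain. Cpt1a was the member with a KO mean above the WT mean, at 688, 463, 665 and 641 in KO+AAV, 631, 629.7, 635, 700.0 and 623 in KO and 578, 750.4, 684, 556 and 451 in WT hearts. The WT range enclosed the KO range, and no contrast passed (log2 change 0.11, SE 0.14, adjusted p = 0.684 for KO against WT). Mlycd, malonyl-CoA decarboxylase, removes the malonyl-CoA that inhibits carnitine palmitoyltransferase. It stood at 2017, 1283, 1471 and 1559 in KO+AAV, 790.2, 1113, 1108, 1120.0 and 876 in KO and 2015, 1575, 1658, 1866 and 1404 in WT hearts. All KO values were lowest, with a fall in KO hearts (log2 change -0.77, SE 0.15, adjusted p = 0.00239) and a rise in KO+AAV hearts (log2 change 0.65, SE 0.16, adjusted p = 0.0161). Cpt2, which rebuilds acyl-CoA inside the mitochondrion, fell in KO hearts (log2 change -0.85, SE 0.19, adjusted p = 0.00613) and differed by 0.61 on the log2 scale (SE 0.20, adjusted p = 0.0616) in KO+AAV against KO hearts. Crat, carnitine acetyltransferase, fell by 0.89 on the log2 scale (adjusted p = 0.016), and Slc25a20, the acylcarnitine carrier of the inner membrane, by 0.67 (adjusted p = 0.0368). Neither passed in KO+AAV against KO hearts (log2 changes 0.53 and 0.46).

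All 4 acyl-CoA dehydrogenases, which catalyse the first step for very long, long, medium and short chains, fell in KO hearts. Acadvl stood at 19008, 14670.0, 16393 and 15775 in KO+AAV, 7263, 11246, 12306, 12249 and 7837 in KO and 21334, 18073, 17749.5, 18702 and 16283 in WT hearts. KO values were below all others, with a change in KO hearts of -0.89 on the log2 scale (SE 0.17, adjusted p = 0.00204) and a change in KO+AAV hearts of 0.72 on the log2 scale (SE 0.18, adjusted p = 0.0183). Of its exon sequence, 26.9% overlaps Dvl2 on the opposite strand. Acads stood at 2296, 1734, 2669 and 3140.2 in KO+AAV, 1241, 1929.9, 2039.6, 2208 and 1413 in KO and 3843, 3502, 3199.8, 2999 and 2545 in WT hearts. KO and WT hearts did not overlap, while KO+AAV hearts overlapped both (log2 change -0.89, SE 0.19, adjusted p = 0.00441 for KO against WT, and log2 change 0.48, SE 0.20, adjusted p = 0.128 for KO+AAV against KO). Acadl, for long chains, fell in KO hearts (log2 change -0.61, SE 0.16, adjusted p = 0.0143), and KO+AAV against KO hearts gave a change of 0.28 on the log2 scale (SE 0.17, adjusted p = 0.262). Acadm, for medium chains, fell near the threshold (log2 change -1.01, SE 0.33, adjusted p = 0.0484), a call lost in 15 of 29 alternatives, and in KO+AAV against KO hearts the estimate was close to 0 (log2 change 0.13, SE 0.35, adjusted p = 0.826).

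The thiolase Acaa2 changed most of all members at 6 months. Acaa2 cleaves acetyl-CoA from medium and long chains at the end of each round, and lies on chromosome 18 from 74779197 to 74806208 (mm10, GENCODE). It stood at 17370.4, 11959, 13145 and 12648 in KO+AAV, 3945, 6933, 7177, 6156 and 3939.8 in KO and 17577, 14657, 14514, 17244 and 17288 in WT hearts. The highest KO value was below the lowest of either other group, and KO hearts averaged 34.6% of the WT mean. The change in KO hearts was -1.57 on the log2 scale (SE 0.19, adjusted p = 4.51e-05) and the change in KO+AAV hearts 1.33 on the log2 scale (SE 0.20, adjusted p = 0.00121); both held in all alternatives run, and relative to the cardiomyocyte markers they were -1.18 (adjusted p = 0.000109) in KO against WT and 1.01 (adjusted p = 0.00171) in KO+AAV against KO hearts. The peroxisomal thiolase Acaa1a passed the test in KO hearts (log2 change -0.40, SE 0.12, adjusted p = 0.0379), a call lost in 14 of 29 alternatives, and rose in KO+AAV hearts (log2 change 0.52, SE 0.13, adjusted p = 0.021). Relative to the cardiomyocyte markers its KO against WT value was close to 0, at -0.0095 (adjusted p = 0.959). Of its exon sequence, 12.4% is shared with Acaa1b.

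Hadha and Hadhb encode the subunits of the mitochondrial trifunctional protein, which carries out the last 3 steps for long chains. The genes lie head to head on chromosome 5, Hadha from 30118304 to 30155162 on the minus strand and Hadhb from 30155248 to 30184593 on the plus strand. Their log2 changes in KO against WT hearts were -0.95 (adjusted p = 0.0457) for Hadha and -0.96 (adjusted p = 0.0319) for Hadhb, calls lost in 15 and 12 of 29 alternatives. In KO+AAV against KO hearts they were 0.34 (adjusted p = 0.497) and 0.24 (adjusted p = 0.62). Echs1, the short-chain enoyl-CoA hydratase, fell in KO hearts (log2 change -0.76, SE 0.23, adjusted p = 0.0304), and Hadh, the short-chain hydroxyacyl-CoA dehydrogenase, just missed the threshold (log2 change -0.87, SE 0.31, adjusted p = 0.0662). Neither passed in KO+AAV against KO hearts (log2 changes 0.33 and 0.38).

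The auxiliary enzymes, which handle double bonds of unsaturated fatty acids, all fell in KO hearts. Eci1, the mitochondrial enoyl-CoA isomerase, stood at 6384, 4573, 4153 and 4065 in KO+AAV, 2343, 2651, 2566, 2224 and 1888 in KO and 5696, 4492, 4651, 5266 and 5590.3 in WT hearts. The KO values lay far below both other groups. The change in KO hearts was -1.14 on the log2 scale (SE 0.14, adjusted p = 7.44e-05) and the change in KO+AAV hearts 1.02 on the log2 scale (SE 0.15, adjusted p = 0.00117). Decr1, the dienoyl-CoA reductase, stood at 5872, 5165, 6083 and 6004 in KO+AAV, 2605, 4247, 4244, 3366 and 2377 in KO and 7295, 6765, 6467, 6962 and 6644 in WT hearts. The 3 groups did not overlap, with KO+AAV between KO and WT. Decr1 fell in KO hearts (log2 change -1.06, SE 0.16, adjusted p = 0.000294) and rose in KO+AAV hearts (log2 change 0.82, SE 0.17, adjusted p = 0.00661). Eci2, another isomerase, fell in KO hearts (log2 change -0.64, SE 0.15, adjusted p = 0.0072) and gave a change of 0.41 on the log2 scale (SE 0.16, adjusted p = 0.104) in KO+AAV against KO hearts.

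The electron transfer flavoprotein takes electrons from the acyl-CoA dehydrogenases, and its dehydrogenase Etfdh passes them to ubiquinone. Etfb, the beta subunit, stood at 24461, 19038, 13261 and 12034 in KO+AAV, 7989, 6734, 6528, 5954 and 6317 in KO and 14402, 9863, 10948, 16415 and 20952 in WT hearts. KO values were tightly grouped and lowest, while both other groups spread widely. Etfb fell in KO hearts (log2 change -1.07, SE 0.22, adjusted p = 0.00376) and rose in KO+AAV hearts (log2 change 1.31, SE 0.24, adjusted p = 0.00349), both in all alternatives run. Of its exon sequence, 43.8% is shared with the predicted gene Gm45233. The alpha subunit Etfa fell in KO hearts (log2 change -0.90, SE 0.23, adjusted p = 0.0138) but gave a change of 0.35 on the log2 scale (SE 0.24, adjusted p = 0.338) in KO+AAV against KO hearts. Etfdh did not pass in either contrast (log2 change -0.90, SE 0.35, adjusted p = 0.0928 for KO against WT, and log2 change 0.23, SE 0.37, adjusted p = 0.694 for KO+AAV against KO).

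**Figure D4:**
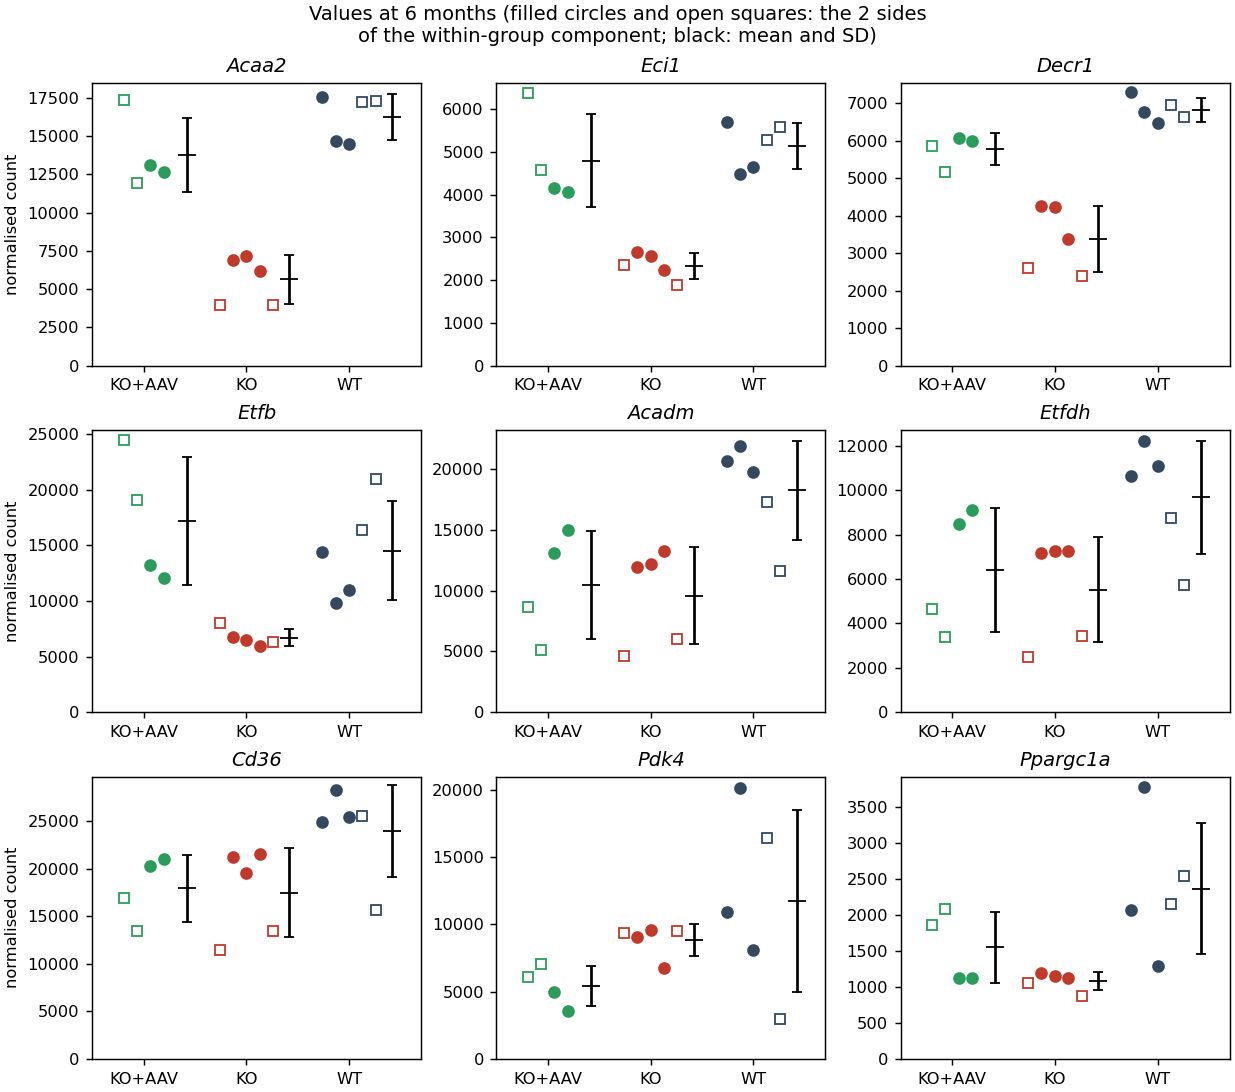
Normalised counts of 9 genes in each heart at 6 months, with the mean and SD of each group in black; filled circles and open squares mark libraries on the positive and the negative side of a component computed from all other genes. Acaa2, Eci1, Decr1 and Etfb show KO hearts below all others, while Acadm and Etfdh separate by side within each group and Pdk4 spreads widely in WT hearts.

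Of the regulators, 3 of 4 fell in KO hearts. Ppara stood at 1058, 979, 821 and 1033 in KO+AAV, 515, 748, 1009.7, 1131 and 556 in KO and 1316, 1321, 1167, 960.2 and 1422 in WT hearts. KO hearts overlapped both other groups, with KO 1, 2 and 5 below all of them (log2 change -0.70, SE 0.20, adjusted p = 0.0251 for KO against WT, and log2 change 0.36, SE 0.21, adjusted p = 0.264 for KO+AAV against KO). Ppargc1a stood at 1857, 2079, 1124 and 1127 in KO+AAV, 1049, 1197, 1157, 1122 and 869 in KO and 2064, 3772, 1291, 2155 and 2533 in WT hearts. KO hearts lay below all WT hearts, and KO+AAV hearts divided, with replicates 1 and 2 in the WT range and 3 and 4 in the KO range. Ppargc1a fell in KO hearts (log2 change -1.05, SE 0.24, adjusted p = 0.00728), with no call in KO+AAV against KO hearts (log2 change 0.47, SE 0.26, adjusted p = 0.23).

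Esrra stood at 2383, 2032, 1770.0 and 1994 in KO+AAV, 1196, 1459, 1469.8, 1595 and 1392 in KO and 2155, 1730.2, 1811, 1814 and 1770.2 in WT hearts. KO values were lowest, with a fall in KO hearts (log2 change -0.39, SE 0.11, adjusted p = 0.0305) and a rise in KO+AAV hearts (log2 change 0.52, SE 0.12, adjusted p = 0.0131). Relative to the cardiomyocyte markers, a scaling that moves all genes up by about 0.39, the KO against WT value of Esrra was close to 0, at 0.0061 (adjusted p = 0.967). Ppargc1b stood at 549, 569.8, 271 and 249 in KO+AAV, 236, 279, 285, 241 and 273 in KO and 355, 415, 228, 294 and 446 in WT hearts. Groups overlapped, and as for Ppargc1a the first 2 KO+AAV libraries were high and the others low (log2 change -0.37, SE 0.24, adjusted p = 0.346 for KO against WT, and log2 change 0.54, SE 0.25, adjusted p = 0.166 for KO+AAV against KO).

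Of Ucp3, Acot2 and Pdk4, which PPAR-alpha is known to induce, Acot2 alone passed the test at 6 months. Acot2, a mitochondrial thioesterase that splits acyl-CoA, stood at 1303, 1036, 1012 and 1063 in KO+AAV, 614, 792, 693, 672 and 614 in KO and 1092, 1113, 1048, 1178 and 1059.8 in WT hearts. KO values were all lowest, and the KO+AAV range enclosed the WT range. The change in KO hearts was -0.70 on the log2 scale (SE 0.11, adjusted p = 0.000387), and in KO+AAV hearts against KO 0.70 on the log2 scale (SE 0.11, adjusted p = 0.00209), and both held in all alternatives run; 24.5% of the exon sequence is shared with Acot1. Ucp3 stood at 1319, 693, 768 and 591 in KO+AAV, 574, 421, 445, 488 and 362 in KO and 969, 848, 707, 725 and 243 in WT hearts. A single WT library, replicate 5, lay below all KO libraries and the rest above them (log2 change -0.49, SE 0.31, adjusted p = 0.34 for KO against WT). All KO+AAV values of Ucp3 exceeded all KO values, without passing the test (log2 change 0.82, SE 0.33, adjusted p = 0.114). Pdk4 stood at 6084, 7015, 5002 and 3580.2 in KO+AAV, 9346, 9037, 9613, 6729 and 9469.7 in KO and 10944, 20117, 8059, 16408 and 2985 in WT hearts. WT values enclosed those of the other groups, and no contrast passed (log2 change -0.15, SE 0.38, adjusted p = 0.858 for KO against WT, and log2 change -0.74, SE 0.41, adjusted p = 0.236 for KO+AAV against KO).

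Between KO+AAV and WT hearts, none of the 34 genes passed limma, against 1.33% of all genes in either direction, and 5 had an unadjusted p under 0.05 (Acadm, Hadhb, Etfa, Ppargc1a and Pdk4). The KO+AAV mean was below the WT mean for 24 genes, with a median log2 change of -0.24, against 0.00 over all genes. Decr1 was the single gene in which every KO+AAV value lay below every WT value, against 2.67% of all genes in that direction. The largest differences were -0.89 on the log2 scale (SE 0.41, adjusted p = 0.264) for Pdk4 and -0.88 on the log2 scale (SE 0.35, adjusted p = 0.219) for Acadm. The 95% interval of the log2 change ran from -1.63 to -0.13 for Acadm, from -0.67 to 0.17 for Acaa2 and from -0.24 to 0.24 for Acot2, so a missed threshold does not show equal levels here.

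The knockout effect itself was compared between ages as the difference of its log2 changes, 6 months minus 6 weeks. Of 34 genes, 2 differed, both more negative at 6 months, against 2.09% of all genes tested in that direction and 1.99% in the other. For Acaa2 the difference was -1.12 on the log2 scale (SE 0.30, adjusted p = 0.0375), from the changes of -1.57 at 6 months and -0.45 at 6 weeks. For Ppargc1a it was -1.51 on the log2 scale (SE 0.39, adjusted p = 0.0315), from -1.05 at 6 months and 0.45 at 6 weeks. The median difference of the 34 was -0.41, against -0.02 over all genes, and 27 lay below 0. Ucp3 lay on the other side, with a fall that was deeper at 6 weeks, without passing the test (log2 change 1.42, SE 0.46, adjusted p = 0.0816). Both calls were lost when the 6-week library WT6, WT16, KO3 or KO4 was left out, and without a mean-variance trend. Without 6-month KO replicate 5 both were lost as well, so they rest on few libraries. Since every 6-week library carried atrial transcripts that the 6-month libraries largely lacked, with Myl7 at 20062 or more at 6 weeks and at most 459 at 6 months, age and atrial transcript content cannot be told apart in this difference.

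Libraries of a group at 6 months differed among themselves along a pattern that many genes share. The first component of the within-group deviations of all genes other than the 34 held 36.7% of that variance. On its negative side lay KO+AAV 1 and 2, KO 1 and 5, and WT 4 and 5, and on its positive side the remaining 8 libraries. Sorbs2, which was among the genes that gave the component, differed between the sides in opposite directions in KO+AAV and KO hearts. It stood at 4696 and 5753 in the negative and 15690.3 and 17923 in the positive KO+AAV libraries. In the KO libraries it stood at 1648 and 1755 on the negative and 494 to 612 on the positive side. WT hearts had 4562 and 4753 on the negative and 5136 to 5398 on the positive side. Its part in the differences between sides was not tested. The labels name no batch that matches this division, and the sides are not groups of the study. Among the 34 genes, the log2 difference of the negative minus the positive side was -1.12 for Acsl1, -1.03 for Etfdh, -0.95 for Acadm, -0.87 for Hadha, -0.84 for Hadh and -0.80 for Hadhb. It had the other sign for Etfb (0.52), Ppargc1b (0.36) and Acaa1a (0.21). So it did, with smaller values from 0.19 to 0.08, for Fabp3, Ppargc1a, Slc27a1, Lpl, Cpt1b and Eci1. Acadm stood at 8634, 5141, 13072 and 14981 in KO+AAV, 4629.5, 11894, 12156, 13233 and 6008 in KO and 20679, 21875, 19754, 17276 and 11580.0 in WT hearts. In each group the libraries of the negative side lay lowest. These were KO+AAV 1 and 2, KO 1 and 5, and WT 4 and 5, with WT 4 nearest to the rest of its group. Etfdh stood at 4642, 3396, 8458 and 9094 in KO+AAV, 2491, 7171, 7263, 7242 and 3431 in KO and 10659.7, 12224, 11071, 8765 and 5715 in WT hearts, with the same libraries low. Both genes were singled out after their values were seen.

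The KO against WT difference was also computed within each side. This division was added after the data were seen and comes from these same libraries, so the values are no independent repeat. Among the negative libraries, KO was below WT for 31 of 34 genes, with a median log2 change of -1.10, against -0.003 over all genes. Among the positive ones it was below for 34, with a median of -0.60, against 0.001 over all genes. Cpt1a, Ucp3 and Pdk4 were the exceptions on the negative side. Acaa2 changed by -2.13 among the negative and -1.20 among the positive libraries in KO against WT hearts, and by 1.87 and 0.94 in KO+AAV against KO hearts. For Ppargc1a the KO+AAV against KO change was 1.04 among the negative and -0.04 among the positive libraries. Whether changes differ between the sides was not tested.

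**Figure D5:**
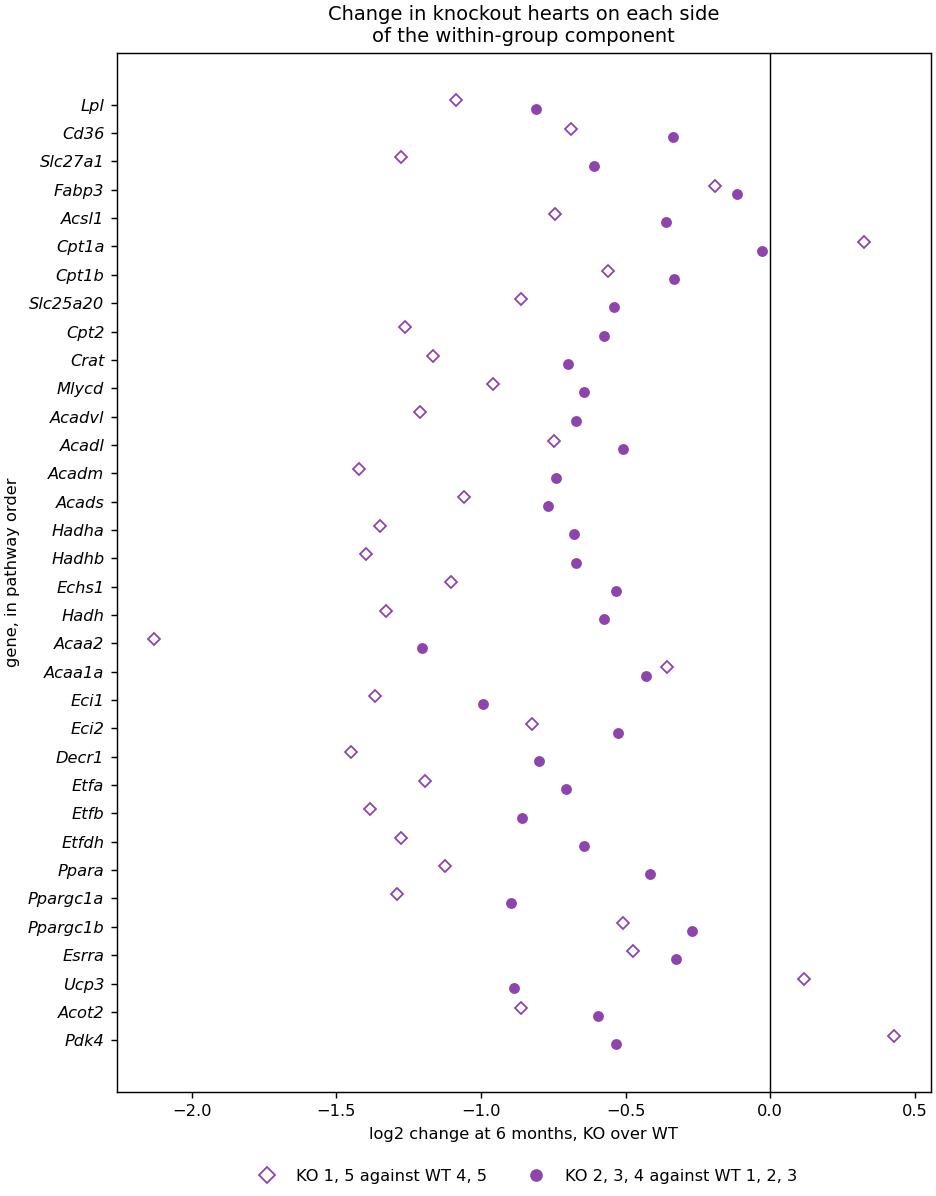
Log2 change in KO over WT hearts at 6 months, computed among libraries of the negative side (open diamonds, KO 1 and 5 against WT 4 and 5) and of the positive side (filled circles, KO 2, 3 and 4 against WT 1, 2 and 3). Almost all symbols lie left of 0, with exceptions for Cpt1a, Ucp3 and Pdk4 on the negative side, and Acaa2 lies farthest left at -2.13.

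Genes of the same metabolism outside the 34 were taken from the same tests, and the counts stand against 8.18% of all genes that fell and 8.13% that rose. In KO against WT hearts at 6 months, 3 of 11 tested further PPAR-alpha targets fell and 0 rose, with Cyp4b1 (log2 change -0.89), the lipid droplet protein Plin5 (-0.93) and the thioesterase Acot1 (-1.31), and the median of the 11 was -0.47. Of 20 transcriptional partners 4 fell, among them the mitochondrial deacetylase Sirt3 (-0.73), the retinoid X receptor Rxrg (-1.21) and Klf15 (-0.54), with a median of -0.19. Of 17 lipid droplet and triglyceride genes 6 fell, with Fitm1 (-1.03), Plin3 (-0.69) and the triglyceride lipase Pnpla2 (-0.77), and a median of -0.55. Of 12 genes of endothelial fatty acid transfer 2 fell, Vegfb (-0.77) and Tcf15 (-0.89), with a median of -0.26. Of 25 other acyl-CoA synthetases, thioesterases and mitochondrial enzymes 4 fell, with Hsd17b10 at -0.91 and a median of -0.51. Of 13 peroxisomal genes 1 fell, Phyh (-0.61), with a median of -0.28, a count no higher than the share of all genes gives. Both Gcdh (-0.93) and Acad8 (-0.60) fell among 5 further dehydrogenases that feed the flavoprotein, with a median of -0.48. A list of 12 genes held subunits, kinases and phosphatases of the pyruvate dehydrogenase complex and the mitochondrial pyruvate carrier. Of these 4 fell, the complex subunit Pdhx (-0.87), the kinase Pdk2 (-0.79) and the carrier subunits Mpc2 (-0.91) and Mpc1 (-0.54), and the median was -0.51. Of 10 genes of malonyl-CoA control 2 fell and 1 rose: the AMP kinase subunits Prkab1 (-1.02) and Prkag1 (-0.46) fell, and Prkab2 (1.10) rose, with a median of -0.01.

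In KO+AAV against KO hearts, where 5.55% of all genes rose, 3 of the 11 PPAR-alpha targets rose, with a median log2 change of 0.26, 4 of the 17 lipid droplet genes, with a median of 0.39, and 4 of the 12 endothelial transfer genes, with a median of 0.42. Of the 20 partners 2 rose, while the median of the 20 was -0.11. Of the 25 other mitochondrial enzymes 8 rose, led by Hsd17b10 (log2 change 0.94) and Echdc3 (0.76), with a median of 0.20. Of the 5 further dehydrogenases Gcdh rose (0.83), with a median of 0.25, and of the 13 peroxisomal genes none, with a median of 0.12. Of the 12 genes around pyruvate dehydrogenase Mpc2 rose (0.90), with a median of 0.05, and of the 10 of malonyl-CoA control Prkab1 (0.64) and Prkag1 (0.41), with a median of -0.20. The genes of these lists that fell were Acot9 (-0.67), Pdk3 (-1.16) and Prkab2 (-1.26). None of these lists had a gene past the test in KO+AAV against WT hearts. At 6 weeks, Slc22a5, the carnitine transporter of the plasma membrane, fell in KO hearts (log2 change -1.36, adjusted p = 0.0239), as did Abcd3, a peroxisomal fatty acyl-CoA transporter (-1.17, adjusted p = 0.0264). No other gene of the 9 lists passed the test at that age.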

How the data were processed

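RNA was measured in 20 mouse hearts, labelled as replicate mice of 5 groups; no label beyond the replicate number says that they are separate animals, so p-values measure the spread between these samples. The authors deposited 2 tables of normalised counts, a fractional signal never below 0, made separately per age. The build was mm10 per the submitters' processing notes, while the aligner, counter and annotation remain not given in the sources used. Low values lay near multiples of one step per library: within 0.1 of a step, 75.7% to 94.4% of values up to 10 steps were whole at 6 weeks and 90.4% to 94.9% at 6 months. Whole reads were therefore not recovered, the counts behind a value are unknown and no count test or counting interval is given. The 6-week columns could be matched to a group but not to a sample; 0 value columns were left out.

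Values were analysed as log2(value + 1) with limma 3.58.1 in R 4.3.3 (mean-variance trend, two-sided), for genes with at least 10 in 3 (6 weeks) or 4 (6 months) libraries, which gave 13242 and 13419 genes. The 34 members all passed this filter in both tables. Adjusted p values (Benjamini-Hochberg) covered every gene tested, and 0.05 was the limit for a call. One model held the 3 groups of 6 months, whose contrasts share libraries. Knockout effects of the 2 ages were compared over 12709 genes by their difference over the combined standard error. The code was checked on simulated data. Replicate numbers at 6 months did not pair the groups: of 13 like-numbered pairs, 0 were each other's closest match. Of these pairs, 7 correlated above 0.1 (range -0.391 to 0.253).

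Members and lists were chosen with earlier results of these data known. Library values are given for members called at 6 weeks, the 8 of smallest p at 6 months, up to 8 called in KO+AAV against KO hearts, those whose knockout effect differed between ages, and, whatever their p, Ppara, Ppargc1a, Ppargc1b, Esrra, Cd36, Lpl, Fabp3, Acsl1, Cpt1a, Cpt1b and Pdk4; of each other list, up to 4 genes of smallest p per comparison. The 9 pathway lists and 9 marker lists are described by counts and medians; markers of macrophages, mural cells, atria and skeletal muscle are in the closing section. Exon length, coordinates and sequence shared with other genes (runs of 50 bases) came from GENCODE annotation of mm10, promoter windows from RefSeq. Tables and plots were made with Python 3.11.15, pandas 2.3.3, numpy 2.4.6 and matplotlib 3.10.9.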

Additional observations from a re-analysis of the deposited data

Results flagged for a closer look

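In 102 groups of 4 or 5 libraries (34 genes in 3 groups at 6 months), 7 single libraries stood apart from the rest of their group by Dixon's criterion; chance alone marks about 1 in 20 groups. WT replicate 5 was low for Cd36, at 15671 with the nearest WT heart at 24944, for Acadl, at 15527 with the nearest at 19353, and for Etfa, at 8354 with the nearest at 10451. WT replicate 1 was high for Esrra, at 2155 with the nearest at 1814. KO replicate 4 was high for Cpt1a, at 700.0 with the nearest at 635, and low for Pdk4, at 6729 with the nearest at 9037. KO+AAV replicate 2 was low for Eci2, at 1301 with the nearest at 1799. The knockout effect differed between ages for Acaa2, by -1.12 on the log2 scale (6 months minus 6 weeks), and for Ppargc1a, by -1.51.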

How the results depend on the processing

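The count of members past the test was 1 in KO against WT at 6 weeks. It was 0 after rescaling to equal totals, relative to the cardiomyocyte markers and with no mean-variance trend, 4 in the libraries whose Y-linked transcripts exceed Xist (Y-linked libraries), and 0 to 2 with 1 library left out. At 6 months, KO against WT gave 25 genes, and 15 after rescaling to equal totals, 14 after quantile normalization, 12 relative to the cardiomyocyte markers, 15 in Y-linked libraries alone, 11 without KO replicates 1 and 5 together, and 15 to 26 with 1 replicate left out. KO+AAV against KO gave 12, and 6 relative to the cardiomyocyte markers, 4 in Y-linked libraries alone and 5 to 13 with 1 replicate left out (5 without KO+AAV replicate 1). KO+AAV against WT gave 0, and 4 with the side of the first component as a term, 4 on its positive side alone (both added after seeing the data; the sides come from the residuals of these same libraries, so that term narrows the spread by construction and its calls support nothing) and 0 to 1 with 1 replicate left out. The difference between ages gave 2, and 1 without a filter on low values, 1 after quantile normalization, 1 relative to the cardiomyocyte markers, 0 with no mean-variance trend and 0 to 3 with 1 library left out. The count of all genes called changed with the setting as well. The cause of these shifts was not tested. With the replicate number as a block, which the data did not bear out as a pairing, the counts at 6 months were 22, 11 and 0 (25, 12 and 0 without the block); no block was possible at 6 weeks, where columns carry no number of a sample. Rescaling to equal totals moved the median of all genes by 0.16 in KO against WT at 6 months and the share of called genes that were higher to 73.1%, and scaling to the cardiomyocyte markers to 92.4%, against 49.8% as deposited. Esrra in KO against WT was close to 0 relative to the cardiomyocyte markers, at 0.0061 (adjusted p = 0.967), under a scaling that moves all genes up by about 0.39; this is no rise. Over 40 called single-gene changes and their alternatives, 915 of 1132 values stayed past the test in the same direction, 216 missed it with the same sign and 1, that of Esrra, with a value just above 0. Y-linked genes exceeded Xist in 2 of 3 libraries of either 6-week group, and in 2 of 4 KO+AAV, 5 of 5 KO and 3 of 5 WT libraries at 6 months. The counts of reads behind values are unknown, which limits statements on low genes.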

Other observations

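Of the remaining marker lists, few genes passed the test. At 6 months, 1 of 7 macrophage markers rose in KO against WT hearts, with sums of 2873 to 4361 in KO and 2245 to 3981 in WT hearts. Mural cell markers summed to 5748 to 9128 in KO and 9868 to 17180.3 in WT hearts, where 1 of 7 rose and 2 fell. Atrial markers summed to 121834 to 225584 in KO and 95732 to 183312 in WT hearts at 6 weeks, with Myl4 at 15695 to 27592 in KO and 13352 to 33896 in WT hearts. At 6 months, Nppa made up nearly all of the sum, which ran between 37420.4 and 126865 in KO hearts, against 5916 and 9973 in WT hearts; Nppa rose (log2 change 3.36), while Myl4 was at most 634 in any library and Bmp10 below 1 in every KO library. The skeletal muscle list is almost wholly Ckm, which heart muscle also expresses, at 8881 to 20609 in KO and 36675 to 53344 in WT hearts; it fell (log2 change -1.57). Its other genes were near 0 or low, such as Tnnt3, at 8.07 to 41.6 in KO and 4.75 to 14.9 in WT hearts, which did not pass the test. Their part in the results on fatty acid genes was not tested.

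Of 5 markers of brown fat, Cox7a1 and Cox8b, which heart muscle also expresses, fell in KO against WT hearts at 6 months (log2 changes -1.06 and -0.96) and rose in KO+AAV against KO hearts (1.38 and 1.23). Ucp1 was at most 4.80 in any 6-month KO library and Elovl3 at most 1.77. The difference of the knockout effect between ages also passed the test for some genes around fatty acid supply outside the 34. More negative at 6 months were Gpihbp1, which carries Lpl to the vessel lumen (-1.64), Tcf15 (-1.66) and Cyp4b1 (-1.43). So were the triglyceride lipase Pnpla2, its inhibitor G0s2 (-1.57) and Fitm1 (-0.94), while Abcd3 (0.89) was less negative. These were 2 of 12 endothelial transfer genes, 1 of 11 PPAR-alpha targets, 3 of 17 lipid droplet genes and 1 of 13 peroxisomal genes. No gene of the other pathway lists passed. Of all genes, 2.09% were called lower and 1.99% higher. As for the 34, age and atrial transcript content cannot be told apart here. Of 10 endothelial markers, Emcn, Pecam1 and Cdh5 were also more negative at 6 months (-1.02, -1.09 and -1.24); whether this bears on Gpihbp1 was not tested.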
